A study of Mus musculus with 63 samples.

Results

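The stress responses of the ovary and the pituitary of the same study were set against each other gene by gene. RNA was sequenced from whole ovaries and whole pituitaries of female C57BL/6 mice under CUMS (chronic unpredictable mild stress, in which different mild stressors alternate over weeks) and from control mice. Sample titles give an age of 2 or 6 months (2M, 6M) and a stress period of 8 or 12 weeks (8W, 12W), so that each tissue has 4 sets with their own controls (named 2M-8W and 6M-8W for the shorter stress, 2M-12W and 6M-12W for the longer). Each group holds 4 libraries, except the 6M-12W control ovaries with 3, which makes 31 ovary and 32 pituitary libraries, 63 in all. Of the 34745 genes in both tables, 15867 had enough reads to be tested in both tissues (17766 in ovary, 17001 in pituitary), and these are the genes compared here. For each gene the stress effect of a tissue is the mean over the 4 sets of the log2 fold, stressed over control. A gene was called when its adjusted p from edgeR's quasi-likelihood test was under 0.05, and a further test asked whether the pituitary and the ovary effect differed from each other.

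The animals carry no transgene or deletion that the labels name, and the controls differ from the stressed mice by the stress alone as far as the labels say. The sources used here do not say whether replicates are separate animals or whether an ovary and a pituitary of the same number come from 1 mouse, and they name no estrous stage, collection hour or sequencing batch. The p-values therefore measure the spread between these libraries. Levels are in CPM, the reads of a gene scaled to a common library size. Total counts were 12536371 to 28777668 per ovary library and 13514270 to 24924584 per pituitary library. Markers fitted the labelled tissues: the summed lactotrope and somatotrope markers, which include prolactin and growth hormone, were at 151000 to 225000 CPM in pituitaries and at 51.7 to 1530 in ovaries, and the luteal markers at 9340 to 25100 CPM in ovaries and 194 to 268 in pituitaries. The 1530 CPM are from 2M-12W controls, and every other ovary group was at 211 or less. Motile cilia and oviduct markers reached 2320 CPM in 2M-8W stressed ovaries, against 395 or less in every other ovary group. Mitochondrially encoded genes summed to 41900 to 100000 CPM in 6M-12W control pituitaries and 43400 to 64400 in their stressed ones. In the other control pituitaries they were at 28100 to 34100. What sets such libraries apart was not tested. These are bulk samples, so fewer cells of a type and less RNA per cell cannot be told apart.

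The pituitary and the ovary are the lower stations of the reproductive axis, in which pituitary gonadotropins drive follicle growth and ovulation and ovarian steroids and inhibin feed back. The pituitary also heads the adrenal stress axis, in which hypothalamic CRH acts through its receptor CRHR1 on corticotropes, these release ACTH, and adrenal glucocorticoids return through the glucocorticoid receptor to switch genes such as Fkbp5 and Tsc22d3 on in many tissues. Both organs hold a circadian clock. BMAL1 (from Arntl) with CLOCK or NPAS2 switches on the Per and Cry repressors, the REV-ERB genes Nr1d1 and Nr1d2 and the output factors Dbp, Tef and Hlf. These last bind the D-box, a site at which NFIL3 represses, and REV-ERB proteins in turn repress Arntl, Npas2 and Nfil3.

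Promoters of shared clock genes were read from RefSeq (GRCm38.p6) for the 250 bases before the transcript start. Per3, which rose in both tissues, and Arntl, which fell in both, are shown because they moved in opposite directions and stand at different points of the loop. Capitals mark D-boxes. Per3 lies at chr4:151044666-151044915 on the minus strand, Arntl at chr7:113207215-113207464 on the plus strand, each 5′ to 3′.
Per3: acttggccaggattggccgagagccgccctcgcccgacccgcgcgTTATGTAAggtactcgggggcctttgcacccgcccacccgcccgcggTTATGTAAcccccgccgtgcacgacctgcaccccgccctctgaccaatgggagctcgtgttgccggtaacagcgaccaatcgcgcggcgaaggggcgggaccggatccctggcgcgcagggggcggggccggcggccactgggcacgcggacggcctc
Arntl: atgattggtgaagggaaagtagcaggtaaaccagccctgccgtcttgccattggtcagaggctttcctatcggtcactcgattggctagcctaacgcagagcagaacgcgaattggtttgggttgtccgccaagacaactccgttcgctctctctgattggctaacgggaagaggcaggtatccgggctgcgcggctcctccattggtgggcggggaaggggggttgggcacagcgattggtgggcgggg
Per3 carries the D-box TTATGTAA 205 and 158 bases before the start. The D-box (TTATGTAA or TTACGTAA, either strand) was found in 0.962% of the 27025 RefSeq promoters of this length. The Arntl window holds none of the motifs searched, which were besides the D-box the E-box CACGTG (6.05% of promoters), the REV-ERB core TAGGTCA (2.27%), the cAMP response element TGACGTCA (1.62%) and the glucocorticoid response element core ACANNNTGT (5.91%). Among the other clock and glucocorticoid genes called in both tissues, Tef and Fkbp5 had an E-box, 127 and 169 bases before the RefSeq start, and Hlf had a cAMP response element 9 bases before it. Nfil3 had a REV-ERB core 12 bases before its RefSeq start. The deposited tables draw Tef, Fkbp5 and Nfil3 from an earlier start, so that these 3 matches lie inside the gene there. The windows of Npas2, Dbp, Nr1d2, Sult1a1 and Sgk1 held none. Per2 had no matching entry. These matches are letters in a window and not binding sites.

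Across the genes tested in both tissues the stress effects were nearly unrelated. In the ovary 1440 genes were higher in stressed mice and 1882 lower, 9.08% and 11.9% of the genes tested in both. In the pituitary 468 were higher (2.95%) and 503 lower (3.17%). Only 289 genes were called in both tissues. Of these, 73 were higher in both, 122 lower in both, 36 higher in ovary and lower in pituitary, and 58 lower in ovary and higher in pituitary. The ovary and pituitary folds had a Pearson's r of 0.0542 and a Spearman's rho of 0.105 across genes, which are not independent replicates, and 54.8% of all genes had the same sign. Typical effects were small: the median absolute fold was 0.109 in ovary and 0.0679 in pituitary on the log2 scale.

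The lower genes overlapped most. Of the 503 genes lower in pituitary, 24.3% were also lower in ovary, against 11.9% of all genes, and 7.16% were higher there, against 9.08%. Of the 468 genes higher in pituitary, 15.6% were higher in ovary (9.08% of all genes) and 12.4% were lower, close to the 11.9% of all genes. Read from the ovary side, the shared genes are 5.07% of its higher and 6.48% of its lower genes. The sets matter as well. In 49 of the 73 genes higher in both, and in 69 of the 122 lower in both, all 4 sets had a fold in the called direction in both tissues, while this held for 14 of 36 and 23 of 58 of the opposite genes. Among genes called in neither tissue all sets had the direction of the mean in 244 of 11863. The calls rest on the mean of these same folds, so that agreement of the sets is in part given by the choice of genes.

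**Figure D1:**
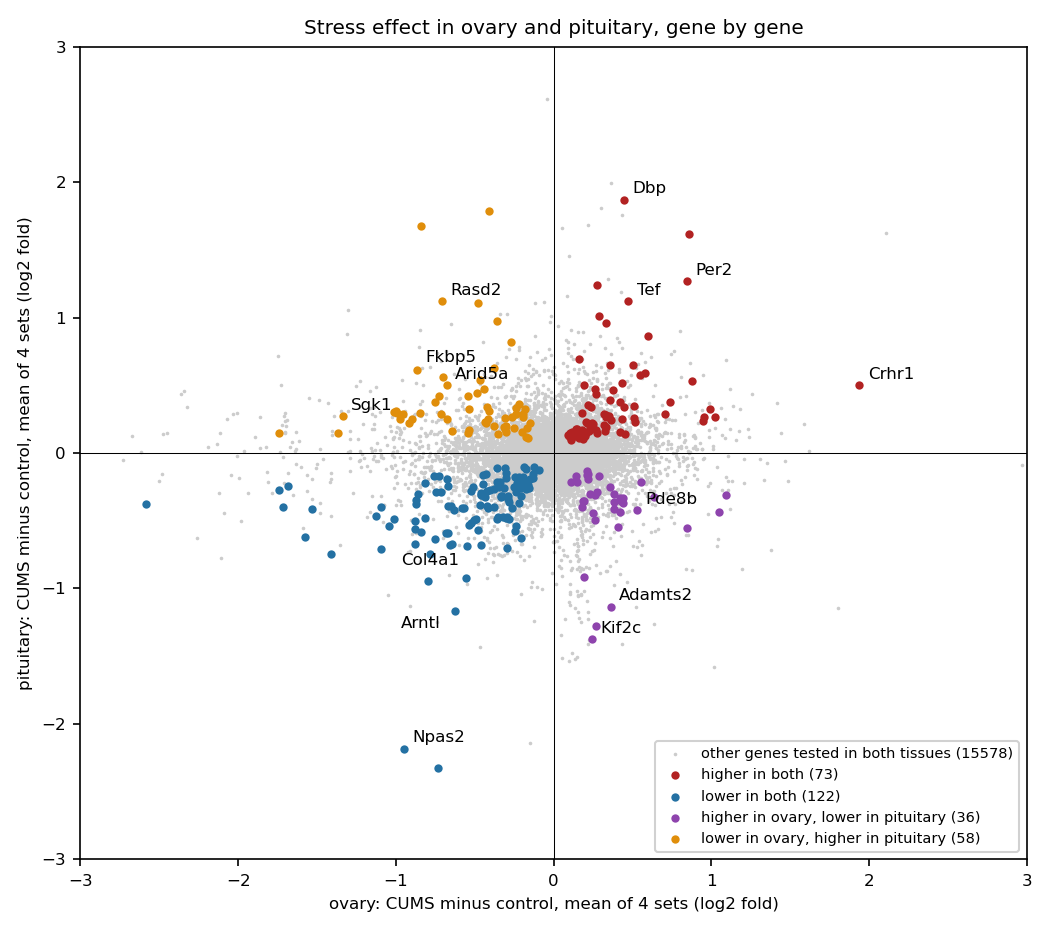
Each point is 1 of 15867 genes, with its ovary effect on the horizontal and its pituitary effect on the vertical axis, both log2 folds of stressed over control as the mean of 4 sets. Coloured points are the 289 genes called in both tissues, and 9 genes lie outside the axes. Clock genes sit far out on the shared diagonal, Npas2 at -0.95 and -2.18 and Per2 at 0.85 and 1.27, and Fkbp5 and Sgk1 lie in the upper left.

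The test of the difference separated the tissues for 1995 genes. The pituitary effect was above the ovary effect in 1192 (7.51%) and below it in 803 (5.06%). All 94 opposite genes passed this test, which is nearly given by their choice for called folds of opposite sign in the same libraries. Of the 195 genes called in 1 direction 29 passed, which moved the same way by unequal amounts. A further 1276 genes were called in ovary, not in pituitary, and with a difference (456 higher in ovary, 820 lower), and 291 the other way round (139 higher in pituitary, 152 lower). For 1757 genes called in ovary alone and 391 called in pituitary alone the difference did not pass, so these cannot be assigned to 1 tissue. In single sets the difference passed for 561 genes in 6M-12W (3.54%), 421 in 2M-8W (2.65%), 392 in 2M-12W (2.47%) and 200 in 6M-8W (1.26%). The count of 2M-8W falls to 14 without stressed ovaries 1 and 3 and to 87 without stressed ovary 1, and that of 6M-12W to 121 without control ovary 2. Leaving out control ovary 2 takes 2M-12W to 146, and control ovary 1 takes 6M-8W to 124.

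Ovary and pituitary of the same set were no more than loosely alike. The share of genes with the same sign was 57.3% in 6M-8W, 57.1% in 6M-12W and 54.0% in both 2M-8W and 2M-12W, and 46.6% to 53.0% when the ovary of 1 set was paired with the pituitary of another. Pearson's r in matched sets was 0.0794 and 0.112 at 6 months and 0.0391 and -0.0163 at 2 months, after 8 and 12 weeks in that order. Between unlike sets r ran from -0.07 to 0.101, so that by this measure matched and unlike sets overlapped. Pairs that have an ovary set or a pituitary set in common share those libraries, and these values are a description.

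The clock was the group with the most shared genes. Of its 20 members, all tested in both tissues, 8 rose and 4 fell in ovary and 11 rose and 3 fell in pituitary, with median folds of 0.16 and 0.39 beside 0.005 and 0.00228 over all genes. Over all genes 9.08% rose and 11.9% fell in ovary, and 2.95% rose and 3.17% fell in pituitary. Higher in both were 0.46% of all genes and lower in both 0.769%. Rising in both were Per2 and Per3, the REV-ERB beta gene Nr1d2 and the output factors Tef, Dbp and Hlf. Arntl, Npas2 and Nfil3 fell in both. None was opposite. The pituitary change was the larger one in most: the difference passed for 13 of 20, with the pituitary fold above the ovary fold in 9 and below it in 4.

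Arntl gave the cleanest shared fall. In ovaries it ranged from 15.2 to 47.8 CPM in controls (median 32.5) and from 13.6 to 26.1 in stressed mice (median 18.9). In pituitaries it ranged from 30.9 to 63.4 in controls (median 47.6) and from 15.2 to 29.4 in stressed mice (median 18.5). All 16 stressed libraries lay below the mean of their own controls in both tissues, where such counts of libraries compare log2(CPM + 0.5) here and below, and in all 4 sets of both tissues no stressed library reached a control of its set. The folds were -0.63 ± 0.08 (SE, adjusted p = 5.48e-06) in ovary and -1.17 ± 0.06 (adjusted p = 3.32e-14) in pituitary, and they differed (-0.54 ± 0.10, adjusted p = 7.77e-05). Controls of 6M-12W were already low, at 17.1 ± 2.33 CPM (SD, n = 3) in ovary and 32.9 ± 1.45 (n = 4) in pituitary, against 33.5 to 38.6 and 44.9 to 55.0 as means of the other sets. The smallest ovary fall was in that set, to 14.1 ± 0.70 CPM.

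Npas2, the partner that can stand in for CLOCK, fell by 0.95 ± 0.15 in ovary and by 2.18 ± 0.12 in pituitary on the log2 scale, in 16 of 16 libraries each, and the difference passed (adjusted p = 1.64e-05). In pituitaries its median went from 8.67 to 1.68 CPM and in ovaries from 7.91 to 4.0. Nfil3, the D-box repressor, fell by nearly equal amounts, -0.75 ± 0.11 in ovary and -0.64 ± 0.12 in pituitary (difference adjusted p = 0.751), again in 16 of 16 libraries of both tissues. Clock itself passed in neither tissue (-0.05 ± 0.09 and -0.28 ± 0.10).

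Among the repressors and outputs Per2 rose by 0.85 ± 0.12 in ovary (adjusted p = 3.08e-05) and 1.27 ± 0.08 in pituitary (adjusted p = 7.47e-12), and its difference missed the threshold (adjusted p = 0.0513). Its median went from 22.8 to 41.0 CPM in ovaries and from 23.3 to 57.5 in pituitaries. In ovaries the arms overlapped in 2 of the 4 sets and in pituitaries in 1. Per3, whose promoter carries the D-boxes printed above, rose by 0.60 ± 0.08 and 0.86 ± 0.08 without a called difference (adjusted p = 0.131). Tef rose by 0.47 ± 0.07 and 1.12 ± 0.07, and here the difference passed (adjusted p = 4.33e-06). Hlf had the larger fold in ovary, 0.74 ± 0.10 against 0.38 ± 0.10, with no called difference (adjusted p = 0.105), and its pituitary call is lost without the 2M-8W set (0.32, adjusted p = 0.0995). Nr1d2 rose by 0.33 ± 0.06 and 0.96 ± 0.05 (difference adjusted p = 1.45e-07). In ovary its call is lost without the 6M-8W set (0.19, adjusted p = 0.0515).

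Dbp differed most between the tissues among these. In pituitaries it went from a median of 28.7 CPM (16.4 to 83.9) to 119 (69.7 to 185), a fold of 1.87 ± 0.10. In ovaries the medians were 57.2 (31.5 to 144) and 101 (56.5 to 132), a fold of 0.44 ± 0.14 (adjusted p = 0.0289). The ovary arms overlapped in 3 of 4 sets, and in 6M-12W they were at 125 ± 19.9 (n = 3) and 123 ± 10.6 CPM (n = 4). The difference of the folds was 1.43 ± 0.18 (adjusted p = 1.35e-07). The ovary call is lost without 2M-12W control ovary 4 (adjusted p = 0.0514) and without 2M-12W stressed ovary 3 (adjusted p = 0.0508), and also without the 2M-12W or the 6M-8W set (0.31 and 0.34).

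Other clock genes changed in 1 tissue and differed. Ciart, an output gene that represses the loop, rose in pituitary (1.99 ± 0.13, median 1.66 to 7.01 CPM) and had 0.36 ± 0.16 in ovary (adjusted p = 0.102; difference adjusted p = 1.77e-07). Nr1d1 rose in pituitary (1.01 ± 0.07) with -0.02 ± 0.13 in ovary, and Bhlhe41 (0.90 ± 0.06 and 0.15 ± 0.14), Usp2 (0.62 ± 0.07 and 0.16 ± 0.11) and Cry2 (0.41 ± 0.07 and -0.06 ± 0.05) showed the same order. In ovary alone Cry1 rose (0.24 ± 0.06) and Rora fell (-0.64 ± 0.15), each with a called difference. A shift of the hour at which arms were collected was not tested, since no hour is given.

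**Figure D2:**
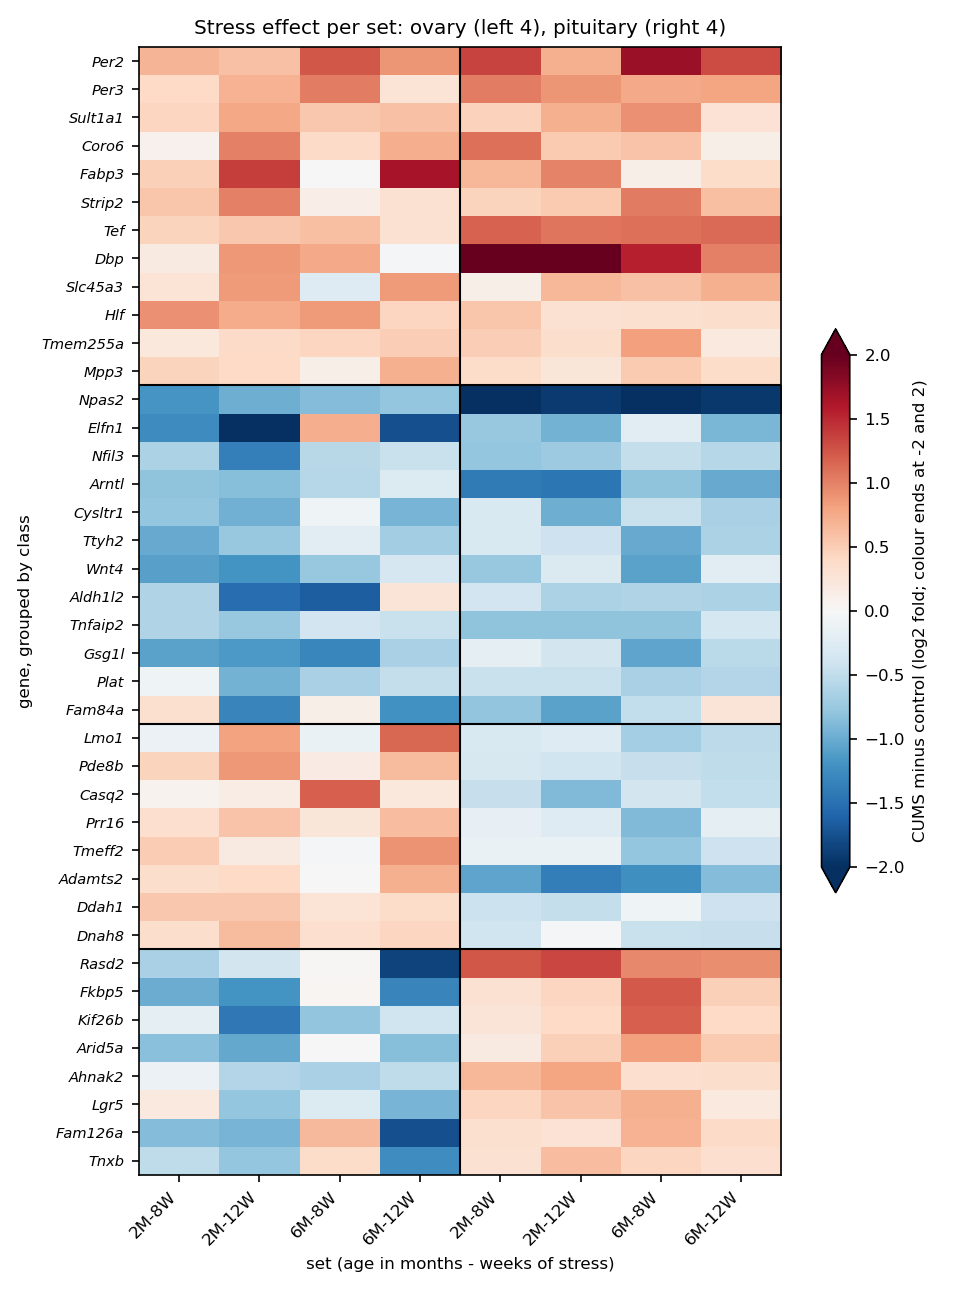
Rows are the 40 genes named by fold size in the 4 classes (12 higher in both, 12 lower in both, 8 higher in ovary and lower in pituitary, 8 lower in ovary and higher in pituitary), and columns are the 4 sets of ovary (left) and pituitary (right). Colour is the log2 fold of stressed over control and ends at -2 and 2. Clock genes keep their direction across the columns apart from Dbp in the 6M-12W ovary, whereas Fkbp5, Arid5a, Fam126a and Rasd2 are near 0 or above it in the 6M-8W ovary.

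The other genes with the largest shared rises came from varied functions. Sult1a1, a sulfotransferase that is also in the glucocorticoid list, rose by nearly the same amount in both tissues, 0.58 ± 0.09 in ovary (adjusted p = 0.000112) and 0.59 ± 0.09 in pituitary (adjusted p = 3.02e-05), in 16 of 16 libraries each. Its medians went from 13.3 to 18.7 CPM and from 7.62 to 10.5. The fatty acid carrier Fabp3 rose by 0.88 ± 0.18 and 0.53 ± 0.11, the actin regulator Coro6 by 0.55 ± 0.14 and 0.58 ± 0.14, and Strip2, a protein of the striatin phosphatase complex, by 0.50 ± 0.12 and 0.65 ± 0.12. Slc45a3, Tmem255a and the scaffold gene Mpp3 rose by 0.38 to 0.43 in ovary and 0.38 to 0.52 in pituitary. For none of these 7 did the tissue difference pass. In ovary Coro6, Strip2 and Slc45a3 lose their call without the 2M-12W set, and in pituitary Fabp3 does so too and Coro6 without the 2M-8W set.

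CRHR1, the receptor through which CRH acts on corticotropes, had a transcript that rose in both tissues from very different levels. In pituitaries Crhr1 was at 8.14 to 20.6 CPM in controls (median 15.3) and 16.9 to 26.4 in stressed mice (median 21.6), a fold of 0.50 ± 0.07 (adjusted p = 2.18e-05). In ovaries it was at 0.0724 to 2.83 CPM in controls (median 0.615) and 0.82 to 5.27 in stressed mice (median 2.90), a fold of 1.94 ± 0.33 (adjusted p = 0.000194). On the log2 scale all 16 stressed libraries lay above their control mean in both. In the 2M-12W ovaries the controls were at 2.83, 0.497, 0.389 and 0.342 CPM and the stressed at 0.82, 2.80, 2.89 and 3.75, so that 1 control stood with the stressed libraries and 1 stressed library near the controls. The difference passed, with the ovary fold the larger (-1.43 ± 0.29, adjusted p = 0.000412). Ovary levels are low and the arms overlapped in 2 of 4 ovary sets. Of the 5 corticotrope and melanotrope markers tested in both tissues 5 rose in pituitary and 1, Crhr1, in ovary, beside 2.95% and 9.08% of all genes. Pomc, the precursor of ACTH, had -0.02 ± 0.29 in ovary at a median of about 5 CPM (4.99 in controls, 5.54 in stressed) and 0.97 ± 0.12 in pituitary (difference adjusted p = 0.0227). The ovary mean hides folds from 1.69 in 2M-8W to -2.21 in 2M-12W, where 1 control ovary was at 64.8 CPM. The difference is lost without the 2M-12W set (0.28, adjusted p = 0.731) or the 6M-8W set (0.94, adjusted p = 0.0739), with voom (0.79, adjusted p = 0.189), with the replicate block (0.80, adjusted p = 0.0866), without 2M-8W control ovary 4 (0.84, adjusted p = 0.0770) and without 2M-8W stressed ovaries 1 and 3 (0.90, adjusted p = 0.0521).

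Matrix genes were the main shared group that fell. Of 30 extracellular matrix genes 20 fell and 1 rose in ovary and 8 fell and 2 rose in pituitary, with medians of -0.36 and -0.16. Over all genes 11.9% fell in ovary and 3.17% in pituitary. Falling in both were the type IV collagen chains Col4a1 and Col4a2, which form basement membranes, the basement membrane genes Nid1 and Hspg2, Col15a1, Sparc and the type I collagen chain Col1a2. None moved in opposite directions with both calls. The difference passed for 12, each with the ovary fold the lower one.

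Col4a1 fell by 0.46 ± 0.07 in ovary (adjusted p = 4.32e-05) and 0.68 ± 0.06 in pituitary (adjusted p = 2.21e-08) on the log2 scale, in 16 of 16 libraries of both. In the 6M-12W pituitaries the controls were at 143, 117, 152 and 103 CPM and the stressed at 66.9, 69.3, 68.5 and 60.5, with no overlap. In the 2M-12W pituitaries the controls were at 132, 160, 137 and 152 and the stressed at 120, 132, 100 and 107, so that the highest stressed library reached the lowest control. Ovary levels were higher, with medians of 1350 CPM in controls and 917 in stressed mice. Col4a2 followed with -0.48 ± 0.07 and -0.57 ± 0.06. Both genes lie head to head on chromosome 8 of GRCm38, Col4a1 on the minus strand at 11198423 to 11312826 and Col4a2 on the plus strand at 11312805 to 11449287, and their annotated ends overlap. Neither differed between the tissues (adjusted p = 0.151 and 0.606).

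Sparc, a collagen-binding matrix protein, fell more in ovary (-0.67 ± 0.09) than in pituitary (-0.25 ± 0.05; difference adjusted p = 0.0036), and so did Col15a1 (-0.88 ± 0.11 and -0.50 ± 0.06), whose difference is at the threshold (adjusted p = 0.0479) and was lost in 52 of 75 alternatives. Nid1 (-0.20 ± 0.05 and -0.21 ± 0.04) and Hspg2 (-0.36 ± 0.07 and -0.22 ± 0.05) fell by small amounts. With a set left out Sparc, Nid1 and Hspg2 lost the pituitary call (without 6M-12W -0.18 and -0.15, and without 6M-8W -0.16 for Hspg2), Nid1 the ovary call (without 6M-12W, -0.17) and Sparc the difference (without 2M-12W, 0.34). Col1a2 (-0.19 ± 0.06 and -0.24 ± 0.07) lost its call in 12 of 42 alternatives in ovary and 12 of 43 in pituitary, among them 2M-12W control ovary 2 (-0.17, adjusted p = 0.0741) or 2M-12W control pituitary 2 (-0.23, adjusted p = 0.0623) left out. Timp1, an inhibitor of matrix proteases, fell in ovary alone (-1.81 ± 0.20 against -0.21 ± 0.11 in pituitary; difference adjusted p = 1.75e-05), and Timp3 rose in pituitary alone (0.39 ± 0.05 against -0.15 ± 0.06; difference adjusted p = 1.08e-06). Tnc rose in pituitary (0.64 ± 0.08) with -0.79 ± 0.30 in ovary.

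Markers of vessels and macrophages are given beside the matrix genes, to be read against the 11.9% of all genes that fell in ovary and 3.17% in pituitary. Of 12 endothelial markers 3 fell in ovary, and in pituitary 5 fell and 1 rose (medians -0.13 and -0.15). Falling in both were Pecam1 (-0.44 ± 0.07 and -0.30 ± 0.05) and Cdh5 (-0.24 ± 0.06 and -0.29 ± 0.06). The summed level was 684 to 1020 CPM in control and 609 to 974 in stressed ovaries, and 512 to 600 and 462 to 594 in pituitaries. Within single sets the arms overlapped except in the 2M-8W ovaries (726 to 892 in control, 609 to 678 in stressed). Of 17 macrophage identifiers tested (16 markers, 1 with 2 identifiers) 7 fell in ovary and 3 in pituitary (medians -0.31 and -0.15), Mrc1 in both (-0.35 ± 0.07 and -0.47 ± 0.13). The sums were 574 to 1510 and 438 to 1150 CPM in ovaries and 151 to 229 and 147 to 213 in pituitaries. Within single sets these arms overlapped except in the 6M-8W ovaries (925 to 1220 and 797 to 909). Of 11 smooth muscle and pericyte markers 5 fell in ovary and 1 in pituitary, Pdgfrb in both. Their sums were lower in stressed 6M-8W ovaries without overlap (2070 to 2320 and 1700 to 2040 CPM). The same held for 2M-12W (324 to 366 and 280 to 303) and 6M-12W pituitaries (399 to 430 and 357 to 387). In the other sets of each tissue the arms overlapped. No marker of these lists was at 0 throughout a set. Their part in the matrix result was not tested.

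Antigen presentation genes of class II fell in both tissues for H2-Ab1 (-0.46 ± 0.10 and -0.31 ± 0.08) and for Cd74, its invariant chain (-0.38 ± 0.10 and -0.27 ± 0.08). The Cd74 call in pituitary (adjusted p = 0.0466) was lost in 31 of 43 alternatives, for example without 2M-12W control pituitary 2 (adjusted p = 0.0580), and that of H2-Ab1 without the 2M-8W or 6M-12W set (-0.27 and -0.18). In all, 7 of 12 class I and II genes fell in ovary and 2 in pituitary, beside 11.9% and 3.17% of all genes. H2-DMa fell in ovary (-0.45 ± 0.10) with 0.06 ± 0.08 in pituitary (difference adjusted p = 0.00363).

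Further genes with large shared falls were Plat, which encodes tissue plasminogen activator, Wnt4, a signalling ligand, and the leukotriene receptor gene Cysltr1. Plat fell by the same amount in both tissues, -0.54 ± 0.12 in ovary (adjusted p = 0.0016) and -0.53 ± 0.06 in pituitary (adjusted p = 1.38e-07), with a difference of 0.0065 ± 0.13. Its pituitary medians were 68.2 and 46.4 CPM and its ovary medians 117 and 76.2. In the 2M-8W ovaries the controls were at 85.8, 146, 80.4 and 117 CPM and the stressed at 170, 80.4, 64.1 and 90.8, so that 1 stressed library was above all controls. The ovary call is lost without the 2M-12W set (-0.40, adjusted p = 0.0511). Wnt4 fell by 0.84 ± 0.14 and 0.59 ± 0.15, and Cysltr1 by 0.68 ± 0.14 and 0.59 ± 0.14. In pituitary Wnt4 loses its call without the 2M-8W or 6M-8W set (-0.53 and -0.43) and Cysltr1 without 2M-12W (-0.46, adjusted p = 0.0879). Tnfaip2 (-0.55 ± 0.09 and -0.69 ± 0.10), Ttyh2, of the tweety family (-0.67 ± 0.11 and -0.59 ± 0.11), and Gsg1l, a subunit associated with AMPA receptors (-1.04 ± 0.16 and -0.54 ± 0.10), fell too, the last without a pituitary call when 6M-8W is left out (-0.36, adjusted p = 0.0827). The synaptic gene Elfn1 (-1.09 ± 0.25 and -0.71 ± 0.15) and the mitochondrial folate enzyme gene Aldh1l2 (-0.88 ± 0.20 and -0.56 ± 0.16) had ovary folds of the other sign in 1 set each, 6M-8W and 6M-12W. Aldh1l2 loses its pituitary call in 10 of 43 alternatives, among them without 2M-12W control pituitary 2 (-0.54, adjusted p = 0.0511). Fam84a (-0.52 ± 0.18 and -0.52 ± 0.16) was near the threshold in both tissues and was lost in 23 of 42 and 23 of 43 alternatives, among them without 2M-12W control ovary 2 (-0.44, adjusted p = 0.0860). Adamts4, a matrix protease of the ovulation list, fell by 1.41 ± 0.19 in ovary and 0.75 ± 0.19 in pituitary, where it was at 2.31 CPM or less and where the call is lost without the 2M-8W, 6M-8W or 6M-12W set (-0.73, -0.68 and -0.54).

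Glucocorticoid-responsive genes held called members in opposite directions. Of 23 tested in both tissues 11 rose and none fell in pituitary, while 1 rose and 7 fell in ovary, with medians of 0.27 and -0.11. The difference passed for 10, each with the pituitary fold above the ovary fold. On the mean of the sets Fkbp5 and Sgk1 were called in both tissues in opposite directions, though in no single set. Sult1a1 was the only member that rose in both. At this threshold 2.95% of all genes rose in pituitary and 11.9% fell in ovary, and 13 of the 23 members had the same sign in both tissues. Ovarian cell markers moved in the same ovaries, where 9.08% of all genes rose and 11.9% fell: 5 of 9 luteal markers fell (median -0.58), 3 of 8 granulosa markers rose (0.32), and of 6 theca markers 5 rose and 1 fell (0.28). Over all sets the summed levels in control and stressed ovaries were 13500 to 25100 and 9340 to 24900 CPM for luteal, 3680 to 10000 and 4770 to 10700 for granulosa, and 1990 to 5010 and 2890 to 5260 for theca markers. In 6M-12W the arms did not overlap for granulosa (6440 to 6910 and 8770 to 10700) or theca (1990 to 3620 and 4120 to 5090). In the other sets these overlapped, and luteal sums overlapped in every set. Oocyte marker sums were higher in stressed ovaries without overlap in 2M-8W, 2M-12W and 6M-12W, while in 6M-8W the arms overlapped. In 6M-12W they were at 157 to 439 and 484 to 682 CPM. Corticotrope and melanotrope sums were higher in stressed pituitaries without overlap in every set. In 2M-8W they were at 9340 to 17700 and 18400 to 37000 CPM. Folliculostellate and stem cell sums were higher without overlap in 2M-8W, 6M-8W and 6M-12W, and overlapped in 2M-12W. Lactotrope and somatotrope sums were lower without overlap in 2M-8W and overlapped in the other sets. The part of these markers in the values of either tissue was not tested.

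Fkbp5 encodes a co-chaperone of the glucocorticoid receptor. In pituitaries it ranged from 39.6 to 88.3 CPM in controls (median 54.7) and from 58.7 to 183 in stressed mice (median 78.0), a fold of 0.61 ± 0.07 (adjusted p = 4.58e-07), above the control mean in 16 of 16. In ovaries it ranged from 378 to 1070 CPM in controls (median 713) and from 232 to 948 in stressed mice (median 325), a fold of -0.87 ± 0.15 (adjusted p = 0.000176), below the control mean in 13 of 16. The 3 others are in 6M-8W, where stressed ovaries were at 786, 948, 931 and 545 CPM and controls at 883, 702, 676 and 856, with full overlap. In the same set the pituitary rise was largest, from 65.5 ± 9.09 to 154 ± 19.8 CPM (n = 4 each). By the edgeR test of single sets the pituitary fold passed only there (adjusted p = 2.03e-06, in the other sets 0.151 or more). The ovary fold of 6M-8W was 0.04. In 6M-12W stressed ovaries were at 315, 325, 324 and 288 CPM against 726, 1070 and 535 in controls, with no overlap. The difference of the mean folds was 1.48 ± 0.16 (adjusted p = 6.97e-09).

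Sgk1, a kinase gene that glucocorticoids induce in many cells, followed the same course. In 2M-12W ovaries the controls were at 224, 437, 360 and 364 CPM and the stressed at 312, 44.2, 39.6 and 52.0, so that 3 stressed libraries were far below all controls and 1 was among them. In 6M-12W the controls were at 484, 795 and 289 and the stressed at 114, 109, 96.9 and 47.8, without overlap, whereas in 6M-8W the means were 411 ± 83.3 and 500 ± 117 CPM. The ovary fold was -1.34 ± 0.27 (adjusted p = 0.000963). In pituitaries the change was small, from a median of 22.0 to 28.9 CPM (0.27 ± 0.06, adjusted p = 0.00738), and it was not called without the 6M-8W set (0.19, adjusted p = 0.189). By the edgeR test of single sets it passed in 6M-8W only (adjusted p = 0.0115), where the ovary fold was 0.28. The ovary fold passed in 6M-12W only (adjusted p = 0.00716). The mean folds differed by 1.61 ± 0.28 (adjusted p = 6.42e-05).

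Other members rose in pituitary alone with a called difference: the metallothioneins Mt1 (0.43 ± 0.06 against 0.12 ± 0.09 in ovary) and Mt2 (0.56 ± 0.07 against -0.03 ± 0.10), Map3k6 (0.60 ± 0.10 against -0.11 ± 0.07), Hif3a (0.46 ± 0.07 against -0.10 ± 0.17) and the lipase gene Pnpla2 (0.19 ± 0.05 against -0.14 ± 0.06). Errfi1 (-1.23 ± 0.22), the cell cycle inhibitor Cdkn1a (-1.42 ± 0.20) and Klf9 (-0.27 ± 0.04) fell in ovary with pituitary folds of 0.02 ± 0.10, -0.21 ± 0.08 and 0.13 ± 0.04. Tsc22d3, which encodes GILZ, rose in pituitary (0.36 ± 0.07) and had 0.15 ± 0.06 in ovary, and its difference did not pass (adjusted p = 0.168). The receptor gene Nr3c1 passed in neither tissue (-0.02 ± 0.12 and 0.28 ± 0.12). Several of the ovary members, such as Errfi1 and Cdkn1a, are also induced by signals other than glucocorticoids.

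**Figure D3:**
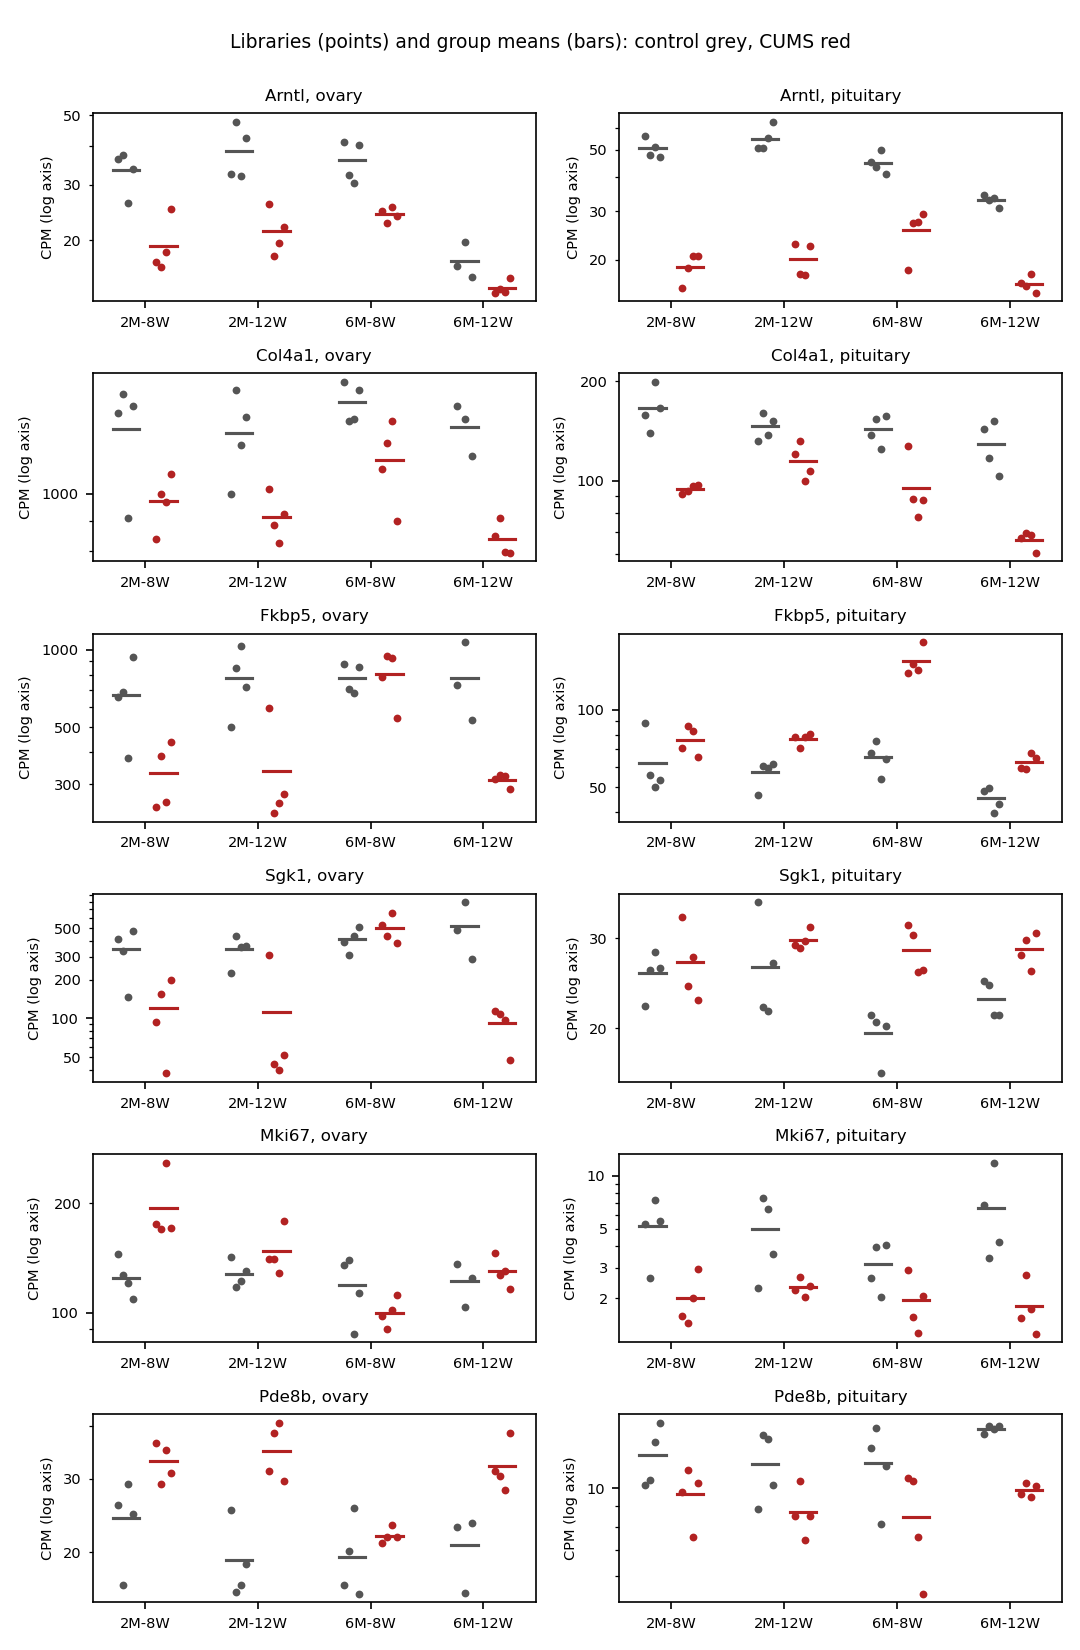
Points are single libraries in CPM on a log axis and bars are group means, control in grey and stressed in red, for 6 genes in ovary (left) and pituitary (right) over the 4 sets. Arntl and Col4a1 are lower in stressed mice on both sides. Fkbp5 and Sgk1 are lower in stressed ovaries of 3 sets and higher in stressed pituitaries, and Mki67 falls in pituitaries only, from a median of 4.14 to 2.02 CPM.

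The other genes lower in ovary and higher in pituitary included Rasd2, a small G protein gene (-0.71 ± 0.20 and 1.12 ± 0.10), and Arid5a, an RNA-binding regulator of inflammatory transcripts (-0.68 ± 0.11 and 0.50 ± 0.07). All 16 stressed pituitaries were above the Rasd2 mean of their controls, with no overlap in any set and medians of 6.01 and 12.8 CPM. Its ovary fall is not called without the 6M-12W set (-0.33, adjusted p = 0.357). In 6M-12W both Rasd2 folds passed by the edgeR test of single sets (adjusted p = 0.00724 in ovary and 0.0181 in pituitary). Arid5a went from a median of 8.84 to 5.53 CPM in ovaries and from 18.3 to 27.0 in pituitaries. In 6M-8W its ovaries were alike (7.91 ± 0.84 and 7.94 ± 2.09 CPM, n = 4), as for Fkbp5. Of the single sets its pituitary fold passed the edgeR test in 6M-8W only (adjusted p = 0.000366). The kinesin gene Kif26b (-0.70 ± 0.17 and 0.56 ± 0.11), Ahnak2 (-0.47 ± 0.10 and 0.54 ± 0.11), Fam126a (-0.73 ± 0.16 and 0.42 ± 0.05) and the matrix gene Tnxb (-0.54 ± 0.15 and 0.42 ± 0.06) were called the same way. Fam126a and Tnxb lose their ovary call without the 6M-12W set (adjusted p = 0.154 and 0.244). By the edgeR test of single sets Fam126a passed in ovary in 6M-12W only (adjusted p = 0.00267). In pituitary it passed in 6M-8W only (adjusted p = 9.4e-05). Lgr5, a receptor of R-spondins (-0.44 ± 0.16 and 0.48 ± 0.12), lost its ovary call in 25 of 42 alternatives, among them without 2M-12W control ovary 2 (-0.39, adjusted p = 0.0888). Egln3, a prolyl hydroxylase gene of the hypoxia list, went from a median of 7.53 to 4.06 CPM in ovaries (-0.99 ± 0.22) and from 5.67 to 7.24 in pituitaries (0.30 ± 0.06; not called without the 2M-8W set, 0.22, adjusted p = 0.0812). Kif26b loses its ovary call without 2M-12W (-0.46) and its pituitary call without 6M-8W (0.35).

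Cyp11a1, the enzyme that starts steroid synthesis, is formally in this class, with -0.41 ± 0.12 in ovary and 1.79 ± 0.33 in pituitary. Its mean level was 5770 CPM in ovaries and 2.02 in pituitaries, where single libraries ranged from 0 to 4.84 CPM in controls and from 0.138 to 7.17 in stressed mice. Ephx2 in the same class (691 and 5.20 CPM) and Akr1cl among the genes higher in both (2530 and 2.23 CPM) are likewise over 100 times more abundant in ovary. Of 9 luteal markers 1, Cyp11a1, passed in pituitary (median fold 0.27), where 2.95% of all genes rose. Its pituitary call is lost without the 6M-8W set (1.34, adjusted p = 0.0722). The part of ovarian RNA in these 3 pituitary values was not tested.

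Fewer genes went the other way, higher in ovary and lower in pituitary. Pde8b, a phosphodiesterase that degrades cAMP, changed in 16 of 16 stressed libraries of both tissues, by 0.53 ± 0.09 in ovary (adjusted p = 0.000139) and -0.42 ± 0.09 in pituitary (adjusted p = 0.00349). In 2M-12W the ovaries were at 25.2, 16.1, 16.7 and 18.7 CPM in controls and 31.2, 38.5, 40.8 and 29.6 in stressed mice, without overlap. In 6M-12W the pituitaries were at 13.7, 14.3, 14.1 and 14.3 and at 9.67, 10.3, 9.52 and 10.1, also without overlap, while in the other pituitary sets the arms overlapped. The difference was -0.95 ± 0.13 (adjusted p = 5.71e-07). Adamts2, which trims fibrillar procollagen, had 0.36 ± 0.08 in ovary and -1.14 ± 0.26 in pituitary, where its median went from 23.4 to 10.1 CPM. Its ovary call is lost without the 6M-12W set (0.25, adjusted p = 0.0666).

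The other 6 named there were the transcription cofactor gene Lmo1 (0.42 ± 0.10 and -0.44 ± 0.08), the calcium-binding Casq2 (0.41 ± 0.13 and -0.55 ± 0.13), Prr16 (0.44 ± 0.11 and -0.37 ± 0.07), Tmeff2 (0.39 ± 0.11 and -0.36 ± 0.07), Ddah1, which breaks down methylarginines (0.43 ± 0.11 and -0.35 ± 0.09), and the axonemal dynein Dnah8 (0.44 ± 0.10 and -0.34 ± 0.09). Each of the 6 lost at least 1 call when a set was left out. Casq2, Tmeff2 and Ddah1 lost both calls in this way, and Casq2 lost its ovary call also without 6M-12W control ovary 2 (0.36, adjusted p = 0.0542). Nr5a1, which encodes the steroidogenic factor SF-1 of gonadotropes and ovarian cells, rose in both (0.32 ± 0.09 and 0.29 ± 0.06). Its ovary call is lost with the replicate block (adjusted p = 0.0798) and without the 2M-12W or 6M-12W set (0.26 and 0.14), and its pituitary call without 2M-12W (0.20, adjusted p = 0.0657). All 4 classes depend on single sets. With 1 set left out, 30 to 40 of the 73 genes higher in both and 50 to 61 of the 122 lower in both were called again. With 1 set left out, 15 to 40 genes were higher in ovary and lower in pituitary, of which 10 to 13 are among the 36, and 25 to 39 were lower in ovary and higher in pituitary, of which 20 to 30 are among the 58.

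The cell cycle list parted by tissue. Of 30 genes 11 fell and none rose in pituitary, where 3.17% of all genes fell, and 5 rose and none fell in ovary, where 9.08% of all genes rose. The medians were -0.48 and 0.16, 29 of 30 members had an ovary fold above 0 and 3 a pituitary fold above 0. The difference passed for 21, each with the pituitary below the ovary. Mki67, the proliferation marker, had a pituitary fold of -1.25 ± 0.19 (adjusted p = 7.09e-05), lower in 16 of 16, and 0.17 ± 0.07 in ovary (adjusted p = 0.0898; difference -1.42 ± 0.20, adjusted p = 1.45e-06). Levels in pituitary were low: in 6M-12W the controls were at 6.82, 3.41, 11.9 and 4.22 CPM and the stressed at 1.55, 2.72, 1.73 and 1.26, without overlap. Ovaries were at 87.6 to 145 CPM in controls and 90.0 to 259 in stressed mice. Top2a, a topoisomerase of dividing cells (-1.22 ± 0.22 and 0.16 ± 0.08 in ovary), and Rrm2 (-1.35 ± 0.25 and 0.05 ± 0.08), Cdk1 (-1.04 ± 0.23 and 0.18 ± 0.07) and Aurkb (-1.22 ± 0.29 and 0.22 ± 0.08) gave the same contrast. The replication helicase genes Mcm2, Mcm3 and Mcm6 rose in ovary by 0.21 to 0.25.

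Immediate early and ovulation genes fell in ovary with few pituitary calls. Of 24 immediate early genes 19 fell in ovary (median -0.56), while in pituitary 1 rose, Ctgf (0.29 ± 0.07), and 1 fell, Cyr61 (-0.76 ± 0.21), with a median of -0.23. The ovary count stands beside 11.9% of all genes, and the pituitary counts are near the 2.95% and 3.17% of all genes. In all, 17 of 24 had the same sign in both. The difference passed for 6 of them, all with the pituitary above, such as Fosl1 (-4.14 ± 0.59 and -0.41 ± 0.51), Egr3 (-1.70 ± 0.28 and 0.23 ± 0.25) and Maff (-0.71 ± 0.13 and 0.31 ± 0.15). For Fosb (-2.26 ± 0.40 and -0.63 ± 0.41) and Junb (-1.0 ± 0.18 and -0.18 ± 0.30) it did not pass (adjusted p = 0.0724 and 0.156), and pituitary SEs in this list reached 0.51. Of 10 ovulation genes tested in both, 6 fell in ovary (median -1.13) and 1 in pituitary (median 0.05), beside 11.9% and 3.17% of all genes. The luteal, granulosa and theca markers given above moved in the same ovaries, and their part was not tested. Adamts1 (-1.66 ± 0.25 and 0.08 ± 0.08) and Runx1 (-0.84 ± 0.16 and 0.19 ± 0.11) differed.

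**Figure D4:**
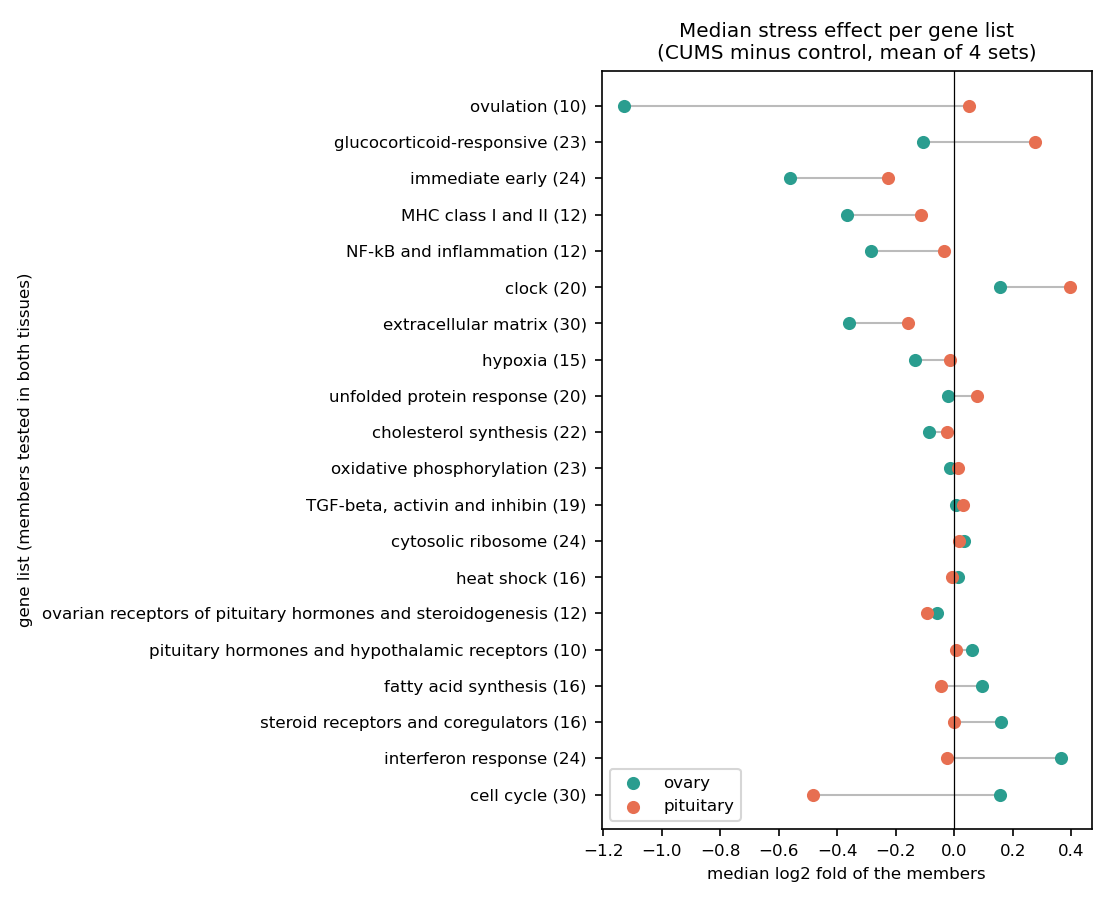
Each row is a pathway list with at least 10 members tested in both tissues (their number in brackets), and points are the median log2 fold in ovary (green) and pituitary (orange). The lists that part most are ovulation (-1.13 and 0.05), cell cycle (0.16 and -0.48), interferon response (0.36 and -0.02) and the glucocorticoid-responsive genes (-0.11 and 0.27), whereas heat shock, ribosome and oxidative phosphorylation lie near 0 in both.

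Beyond these lists the genes with the smallest p of the difference were of mixed function. In ovary alone Cpxm2, a carboxypeptidase-like secreted protein, fell by 2.62 ± 0.22 (median 41.5 to 7.90 CPM, 16 of 16) with 0.0042 ± 0.04 in pituitary, where it stayed between 56.8 and 87.3 CPM in both arms. Thsd7b (-2.14 ± 0.25), the drug efflux pump gene Abcb1b (-2.19 ± 0.25, median 666 to 117 CPM), the kinase Lrrk2 (-0.55 ± 0.07) and the dense-core vesicle protein Ptprn (-2.68 ± 0.37) fell likewise. Ptprn was at 583 to 1070 CPM in pituitaries and at 19.9 or less in ovaries. Raised in ovary alone were Zfp536 (1.62 ± 0.17), the proteoglycan gene Bcan (0.91 ± 0.12), Fam213a (0.90 ± 0.11), Sh2d4a (0.52 ± 0.07) and the cap-binding Eif4e3 (0.38 ± 0.06), with pituitary folds of -0.25 to 0.03.

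In pituitary alone the exocytosis factor Doc2b (1.16 ± 0.11), Aqp11, an aquaporin (0.76 ± 0.09), Mettl7a1 (0.64 ± 0.05) and glutamine synthetase Glul (0.57 ± 0.05) rose, each in 16 of 16 stressed pituitaries, with ovary folds of 0.09 ± 0.06, -0.22 ± 0.10, 0.00011 ± 0.06 and -0.14 ± 0.08. The apelin receptor gene Aplnr fell by 1.01 ± 0.08 (median 23.2 to 13.5 CPM; -0.08 ± 0.06 in ovary), and so did Leo1, of the polymerase-associated factor complex (-0.50 ± 0.04), the ligand Wnt9a (-0.51 ± 0.08) and Fam101b (-0.46 ± 0.05).

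Genes of the axis itself were mostly not shared. In ovary the inhibin subunit Inha rose (0.46 ± 0.12, difference from pituitary adjusted p = 0.00399) and the prolactin receptor Prlr fell (-0.62 ± 0.14, difference adjusted p = 0.0115), with pituitary folds of -0.06 ± 0.06 and -0.07 ± 0.07. The Prlr difference is lost without the 2M-8W, 2M-12W or 6M-12W set (0.43, 0.52 and 0.31), and its ovary call without 6M-12W (-0.39, adjusted p = 0.0897). Inha loses its ovary call without the 2M-12W or 6M-12W set (0.40 and 0.34) and its difference without 6M-12W (-0.41, adjusted p = 0.0818). The LH receptor Lhcgr fell in ovary (-0.66 ± 0.19; not called without the 2M-8W set, -0.35, adjusted p = 0.302) and was at 1.26 CPM or less in pituitaries. Inhba (0.49 ± 0.20 and 0.32 ± 0.21), Esr1 (0.17 ± 0.11 and -0.15 ± 0.05), Pgr (0.66 ± 0.25 and 0.02 ± 0.16) and Lhb (-0.07 ± 0.34 and -0.03 ± 0.08) passed in neither tissue. Fst had 0.36 ± 0.14 in ovary (adjusted p = 0.0772) and was at 0.539 CPM or less in pituitary, and Fshb had -0.48 ± 0.31 in pituitary (adjusted p = 0.444) and was at 0.307 CPM or less in ovary, so each was tested in 1 tissue. Of 19 TGF-beta, activin and inhibin genes tested in both tissues 3 rose and 4 fell in ovary, beside 9.08% and 11.9% of all genes. In pituitary 1 rose and 1 fell, beside 2.95% and 3.17%. Called in both were only Tgfbr2, which fell (-0.30 ± 0.04 and -0.18 ± 0.04), and the inhibin co-receptor Tgfbr3, which rose (0.20 ± 0.06 and 0.23 ± 0.04). The Tgfbr3 ovary call was lost in 9 of 42 alternatives, among them without 2M-12W stressed ovary 3 (0.17, adjusted p = 0.0551).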

How the data were processed

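Per the labels, RNA extraction used chloroform and library construction the NEBNext Ultra II kit. The authors deposited raw read counts per gene, which were used for every result, and FPKM values, which were not used. For the aligner, the counter and the genome build the sources used here give no name. Of 34344 gene identifiers found in GENCODE M21, 34331 lie on the same chromosome of GRCm38. None of 93 replicate pairs held identical counts.

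Each tissue was fitted with its 8 groups, and both with 16 groups for the tissue difference, by edgeR 4.0.16 (filterByExpr, TMM, quasi-likelihood F test, R 4.3.3) with Benjamini-Hochberg adjustment. SEs are the absolute fold divided by the square root of F. Gene lists were described by counts and medians. The genes, lists and tests were chosen with earlier results of these data known. Named were, at a mean log2 CPM of at least 1 in each tissue and without predicted genes, Rik genes and pseudogenes, the 12 largest folds of each shared class and 8 of each opposite class, ranked by the smaller fold of both tissues, the 5 smallest p of the difference in each one-tissue class, list members called in both tissues and a fixed core list; the single values printed for other list members, and the markers called in both, were chosen after their values were seen. In simulated counts for 15867 genes, 92% of 25 genes changed 1.5 times in both tissues were recovered. Of 25 changed 1.5 times in opposite directions 96% were recovered. There 5.33% of ovary, 3.92% of pituitary and 8.50% of difference calls were false. The simulation changed few genes, at the same fold in all 4 sets. In the data the median of the smaller fold was 0.232 to 0.29 on the log2 scale in the 4 classes called in both, less than a change of 1.5 times. These rates therefore need not hold for the data. Alternatives were DESeq2 1.42.0, limma 3.58.1 voom (with sample weights by tissue in the joint fit only), RLE factors, no filter, a replicate block, each library or set left out, other thresholds, and the omission of libraries that stand apart or of genes 100 times more abundant in 1 tissue.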

Additional observations from a re-analysis of the deposited data

Results flagged for a closer look

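For 8 genes set out above the stress effects of the tissues differed by the joint test. The pituitary fold minus the ovary fold was 1.61 for Sgk1, 1.48 for Fkbp5, 1.43 for Dbp and 1.18 for Arid5a, and -1.43 for Crhr1, -1.42 for Mki67, -0.95 for Pde8b and -0.54 for Arntl. Over all genes 1995 differed in the mean of the sets, and in single sets 561 (6M-12W), 421 (2M-8W), 392 (2M-12W) and 200 (6M-8W).

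Single libraries stood apart from the others of their group in 13 of 165 groups of 4 checked for 11 genes, where chance gives about 1 in 20. In 2M-12W ovaries these were stressed library 1 for Fkbp5 (593 CPM) and Sgk1 (312 CPM), control 3 (103 CPM) and stressed 4 (56.5 CPM) for Dbp, and control 1 for Crhr1 (2.83 CPM). Among the other ovaries they were 6M-8W control 3 for Crhr1 (1.04 CPM) and 2M-8W stressed 3 for Mki67 (259 CPM). In pituitaries they were 2M-8W control 1 for Per2 (30.7 CPM) and Fkbp5 (88.3 CPM), 2M-12W control 1 for Fkbp5 (46.7 CPM) and Crhr1 (20.0 CPM), 6M-8W control 2 for Arid5a (18.2 CPM) and 6M-12W stressed 1 for Crhr1 (20.5 CPM).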

How the results depend on the processing

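No named fold or difference changed sign. Of 196 called, 134 were called under every alternative counted and 62 lost the call in at least 1. The stricter thresholds were left out of these counts, and of the counts of alternatives given for single genes above. The counts moved more, and the cause was not tested. By construction a stricter threshold can only lower the counts per tissue, of differences and of genes called in both tissues. Leaving a set out lowered some counts and raised others.

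At an adjusted p under 0.01 the counts were 25 higher in both, 44 lower in both, 7 higher in ovary and lower in pituitary, 20 the reverse, 625 in ovary alone and 155 in pituitary alone with a difference, 1820 in ovary, 521 in pituitary and 1041 differences. With a fold of at least 0.5 they were 8, 22, 1, 5, 482, 127, 972 and 315, without the count of differences. Without the 2M-12W set the counts were 38, 72, 17, 25 and 569, with 1941 in ovary and 1100 differences. Without 2M-8W the classes called in both held 38, 64, 15 and 37 genes. Without 6M-12W there were 41 higher in both, 62 lower in both, 19 higher in ovary and lower in pituitary, 772 in ovary alone and 1280 differences. Without 6M-8W there were 79 lower in both, 34 lower in ovary and higher in pituitary, 127 in pituitary alone and 610 in pituitary. In the same setting the ovary calls rose from 3615 to 4560. Those in ovary alone with a difference rose from 1276 to 1510, and those higher in ovary and lower in pituitary from 36 to 40. DESeq2 gave 60 genes higher in ovary and lower in pituitary, and differences of 644 in 2M-8W, 668 in 2M-12W and 344 in 6M-8W. Voom gave 46 in 2M-8W and 257 in 2M-12W. Without 2M-8W stressed ovaries 1 and 3 the 2M-8W differences were 14, and without 6M-12W control pituitaries 3 and 4 those of 6M-12W were 1108.

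Leaving out 1 library at a time gave 56 to 90 higher in both, 100 to 145 lower in both, 24 to 52 and 46 to 69 opposite, 962 to 1477 in ovary alone, 249 to 330 in pituitary alone, 2748 to 3997 in ovary, 918 to 1253 in pituitary and 1645 to 2215 differences. In single sets the differences were 87 to 718 (2M-8W), 146 to 685 (2M-12W), 124 to 282 (6M-8W) and 121 to 795 (6M-12W).

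Whether replicate numbers pair libraries is not stated, and low correlations cannot exclude it. Same-numbered control and stressed libraries had a median correlation of 0.0538 in ovary (4 of 15 over 0.1, highest 0.222). In pituitary it was 0.0273 (5 of 16, highest 0.353), and for ovaries and pituitaries of 1 label 0.0231 (6 of 31, highest 0.224). With the replicate block there were 59 higher in both, 113 lower in both, 28 and 47 opposite, 1045 and 272 in 1 tissue alone, 2824 in ovary, 1155 in pituitary and 1769 differences. In single sets the differences were 27 (2M-8W, against 421 without the block), 289 (2M-12W), 195 (6M-8W) and 408 (6M-12W).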

Other observations

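The counts here stand beside 9.08% of all genes higher and 11.9% lower in ovary, and 2.95% and 3.17% in pituitary. Of 24 interferon response genes 4 rose in ovary and 2 fell in pituitary (median folds 0.36 and -0.02, beside 0.005 and 0.00228 over all genes). Folds above 0 were found for 21 of the 24 in ovary and for 10 in pituitary. Of 12 inflammatory genes of the NF-kB pathway 6 fell in ovary and 1 rose in pituitary (-0.29 and -0.03). Of 16 steroid receptors and coregulators 8 rose in ovary, while 1 rose and 2 fell in pituitary (0.16 and -0.00084). No mitochondrially encoded gene of 13 and no oxidative phosphorylation gene of 23 was called in either tissue.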
